A study of Mus musculus with 12 samples.

Results

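The calcium channels of the endoplasmic reticulum store and the proteins that refill that store were examined in mouse female germline stem cells (FGSCs). The 10 genes, chosen by family, were the ryanodine receptors *Ryr1*, *Ryr2* and *Ryr3*, the IP3 receptors *Itpr1*, *Itpr2* and *Itpr3*, the store sensors *Stim1* and *Stim2* and the plasma membrane channels *Orai1* and *Orai2*. They were listed as 13 RefSeq transcripts, of 24809 genes and 41388 transcripts in all. *Ryr3* was singled out for its rise after *Stella* overexpression in these same libraries. For *Ryr3*, values that rest on the Over or Over-con libraries are therefore a description, given with no test.

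RNA-seq was performed on 12 libraries of C57BL/6 FGSCs in 4 groups of 3, to ask which genes respond to the loss or gain of *Stella* (*Dppa3*), a maternal effect gene. KO was a *Stella*-knockout line made with CRISPR/Cas9 and represented by 1 clone, and KO-con was its control, for which the labels give no further treatment. Over was a line that received *Stella* by lentivirus with puromycin selection, and Over-con received the empty lentiviral vector. All cells were of high passage and grew on mitotically inactivated STO fibroblast feeders. The sources do not say whether the 3 libraries of a group came from separate cultures, so p-values measure the spread between these libraries, which may be technical.

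Calcium is pumped into the endoplasmic reticulum by SERCA pumps and held there by buffering chaperones. It leaves through ryanodine receptors, which open on cytosolic calcium, and through IP3 receptors, which open when phospholipase C makes IP3. When the store empties, STIM proteins in its membrane sense the fall and open ORAI channels in the plasma membrane, a route called store-operated calcium entry. In oocytes, IP3 receptors are known for the calcium waves of fertilization. *Ryr1* and *Ryr2* are the release channels of skeletal muscle and heart, and *Ryr3* is found at lower levels in brain, muscle and other tissues.

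The libraries held 5611846 to 12866545 counts (median 10221419), and 3 counts, the smallest amount taken as present, were worth 0.233 to 0.535 CPM, the unit of read counts scaled to normalized library size used below. Such floors cover counting error only. *Dppa3* had 347, 371 and 285 counts in the Over libraries and 0 in the 9 others, so its level separates Over from Over-con but does not check the knockout label. Of 11 germ cell markers, 4 averaged at least 1 CPM, among them *Ifitm3* at group means of 95.2 to 155 CPM. *Ddx4* and *Tfap2c* were at 0 in every library, and *Dazl*, *Pou5f1*, *Nanos3* and *Stra8* had at most 1 count in any. Counts of genes listed with several transcripts were thin in this table (23.3% of such coding genes averaged at least 1 CPM, against 50.6% of those listed with 1 transcript). *Itpr2* and *Stim2* were listed with 2 and 3 transcripts and the 8 others of the 10 genes with 1. The germ cell markers *Ddx4*, *Tfap2c*, *Dazl*, *Pou5f1* and *Nanos3* were listed with 2 transcripts each and *Stra8* with 1. Low counts of the markers listed with 2 transcripts are therefore not read as absence. That reason does not cover *Stra8*, nor *Dppa3*, which was also listed with 1 transcript. The authors reported *Mvh* (*Ddx4*), *Oct4* (*Pou5f1*), *Dazl* and *Stella* in their FGSCs by RT-PCR, and MVH, OCT4 and STELLA protein by immunofluorescence. They also reported *Stra8* mRNA and protein as raised after *Stella* overexpression. The counts of *Dppa3* in KO-con and Over-con and of *Stra8* in Over differ from these reports, and the cause was not tested.

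The 3 ryanodine receptor genes are paralogs, and a read can be assigned to *Ryr3* only where its sequence differs from theirs. The longest stretch of *Ryr3* coding sequence found unchanged in *Ryr1* or *Ryr2* was 30 bases long, and it was the same stretch in both. It is shown because it bounds how far identical coding sequence runs between *Ryr3* and the 2 others. Sharing of reads aligned with mismatches was not tested. Capitals mark the 30 bases common to the 3 genes, with 15 bases on each side in lower case, written 5′ to 3′ along the transcript.
Ryr3: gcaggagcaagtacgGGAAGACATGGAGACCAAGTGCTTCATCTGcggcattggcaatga
Ryr2: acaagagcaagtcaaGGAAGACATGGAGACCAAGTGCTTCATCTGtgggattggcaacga
Ryr1: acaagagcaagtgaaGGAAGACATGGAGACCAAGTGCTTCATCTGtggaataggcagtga
Each sequence shown, with its lower-case bases included, spans an exon junction on the minus strand of mm9: chr2:112475535-112475941 in *Ryr3* (exons 101 and 102 of 104), chr13:11648934-11650341 in *Ryr2* (exons 102 and 103 of 105) and chr7:29789513-29789829 in *Ryr1* (exons 103 and 104 of 106). Of the 15381 stretches of 30 bases in the *Ryr3* transcript, 1 also occurred in another gene. The longest identical coding runs within the other families were 28 to 32 bases for the IP3 receptors, 15 for *Stim1* and *Stim2* and 18 for *Orai1* and *Orai2*.

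*Ryr3* (NM_001319156) lies on the minus strand at chr2:112471512-113057253 in mm9. It had 28.9, 27.4 and 23.9 CPM in the KO libraries and 26.8, 22.9 and 29.2 CPM in the KO-con libraries. These groups overlapped, with means of 26.7 ± 2.59 and 26.3 ± 3.17 CPM (SD, n = 3 each). In the Over libraries it had 42.0, 34.2 and 38.3 CPM, and in the Over-con libraries 15.2, 15.8 and 18.0 CPM. Every Over library lay above the 9 others and every Over-con library lay below all libraries of the other groups. The Over mean of 38.2 ± 3.89 CPM was 2.33-fold that of Over-con, 16.4 ± 1.51 CPM (SD, n = 3 each; log2 fold change 1.22). These values rest on 90 to 454 counts per library.

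**Figure D1:**
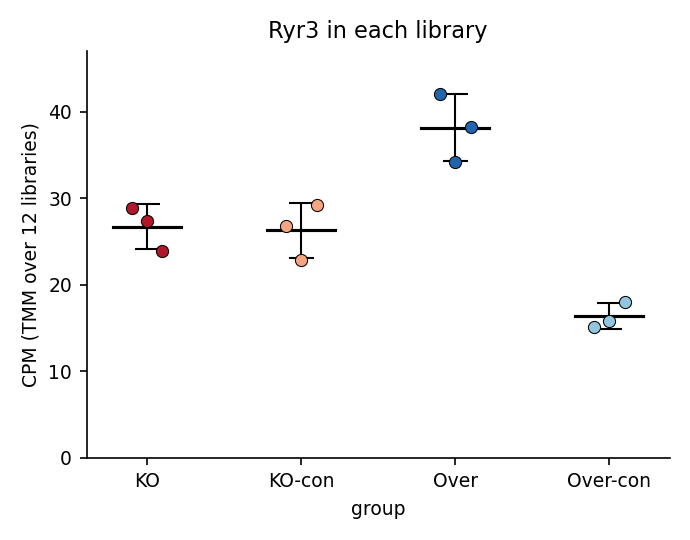
*Ryr3* level in CPM (y axis) in the 4 groups (x axis), with 1 point per library, a bar at the group mean and an error bar of 1 SD (n = 3). KO and KO-con overlap between 22.9 and 29.2 CPM, Over lies above them and Over-con below.

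The control groups themselves differed in *Ryr3*, and the size of the overexpression difference depends on which of them it is set against. KO-con stood at 1.60-fold the level of Over-con (log2 fold change 0.68, a description). Set against KO-con, the Over libraries were higher by a log2 fold change of 0.55, and the KO libraries set against Over-con by 0.70. These comparisons share libraries and are not independent of each other. Only the knockout comparison of *Ryr3* uses none of the libraries behind its choice, and there its log2 fold change was 0.034 (SE 0.12, adjusted p = 0.902, edgeR's quasi-likelihood test with Benjamini-Hochberg adjustment over all transcripts). Its 95% interval ran from 0.859-fold to 1.22-fold.

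Exons of *Ryr3* share 891 bases, 5.78% of its transcript, with *Aven*, an apoptosis inhibitor on the other strand. The kit keeps strand, but the strand setting of the counting is not given in the sources used here. *Aven* summed over its 5 listed transcripts was at 9.58 ± 0.615 CPM in Over and 7.05 ± 0.919 CPM in Over-con (SD, n = 3 each). Its most abundant transcript did not pass the test there (log2 fold change 0.41, adjusted p = 0.300, edgeR).

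*Ryr1* (NM_009109; chr7:29788359-29910170, minus strand), the skeletal muscle channel, was counted by 7 to 25 reads per library. It had 1.96, 2.08 and 2.00 CPM in KO and 0.724, 0.985 and 1.33 CPM in KO-con, groups that did not overlap. The log2 fold change of 1.02 (SE 0.35, 1.20-fold to 3.40-fold) had an unadjusted p of 0.011 in edgeR, and after adjustment it missed the threshold (adjusted p = 0.0748, edgeR). With all 12 libraries in 1 fit it did pass (adjusted p = 0.0422, edgeR). It did not pass without the low-count filter (adjusted p = 0.112, edgeR) or against Over-con (adjusted p = 0.122, edgeR). With any 1 library left out it also missed the threshold (adjusted p of 0.0921 to 0.274, edgeR). *Ryr1* was given no adjusted p by DESeq2. In Over it had 1.85, 1.91 and 1.60 CPM and in Over-con 1.02, 1.23 and 0.970 CPM, again without overlap (log2 fold change 0.78, SE 0.34, adjusted p = 0.342, edgeR). Against the low-count filter all 3 libraries of KO and of Over passed and 2 of each control, so *Ryr1* entered each test mainly through the group where it was higher. Striated and smooth muscle markers, summed, were at 8.07 to 10.4, 8.60 to 9.13, 6.43 to 8.51 and 9.32 to 11.6 CPM in KO, KO-con, Over and Over-con, with 2 of 9 averaging at least 1 CPM and *Acta1* and *Myog* at 0 in every library. *Acta1* was listed with 2 transcripts and *Myog* with 1.

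*Ryr2* (NM_023868; chr13:11645370-12199212, minus strand), the cardiac channel, had 21 counts over the 12 libraries and at most 4 in any. It had 0 in 1 library each of KO, KO-con and Over, which allows up to 3 counts there, and it was too low to test. Per kilobase of transcript, *Ryr3* made up 92.5 to 95.8% of the ryanodine receptor level in the 4 group means, *Ryr1* 3.70 to 6.99% and *Ryr2* 0.280 to 1.34%.

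*Itpr3* (NM_080553; chr17:27194249-27259168, plus strand) was the leading IP3 receptor, at 78.3 to 82.2% of the family's level per kilobase. It had 369, 389 and 442 CPM in KO and 364, 361 and 321 CPM in KO-con, with every KO library above every KO-con library. The log2 fold change of 0.20 (SE 0.08, 1.02-fold to 1.30-fold) had an unadjusted p of 0.0216 and did not pass after adjustment (adjusted p = 0.117, edgeR). It passed when KO replicate 1 was left out (0.26, adjusted p = 0.0225, edgeR). In Over it had 351, 353 and 324 CPM and in Over-con 380, 330 and 371 CPM, which overlapped (log2 fold change -0.067, SE 0.067, adjusted p = 0.734, edgeR). The knockout effect minus the overexpression effect was 0.27 on the log2 scale (SE 0.11, adjusted p = 0.138, edgeR).

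*Itpr1* (NM_010585; chr6:108163112-108501103, plus strand), the main IP3 receptor of brain and of oocytes, was among the steadiest of the 10 genes, with 90.3 to 106 CPM over the 12 libraries. Its means were 94.9 ± 1.37, 93.4 ± 5.30, 104 ± 1.58 and 99.7 ± 4.84 CPM in KO, KO-con, Over and Over-con (SD, n = 3 each). The log2 fold changes were 0.031 for the knockout (SE 0.075, adjusted p = 0.849, edgeR) and 0.068 for overexpression (SE 0.069, adjusted p = 0.742, edgeR). *Itpr2* (NM_019923; chr6:146056821-146450745, minus strand) had 11 counts in all, with 0 in the 3 KO libraries and at most 3 in any other, and was not tested.

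Release channels of both kinds were thus detected, with IP3 receptors the more abundant. *Ryr3* formed 1.86 to 2.22% of the summed ryanodine and IP3 receptor level per kilobase in the Over-con libraries and 4.25 to 5.21% in the Over libraries. It formed 2.56 to 3.57% in KO and 2.92 to 4.04% in KO-con. Over was highest and Over-con lowest, as for the *Ryr3* level itself, on which the gene was chosen.

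*Stim1* (NM_009287; chr7:109416338-109585362, plus strand), the store sensor, separated the control groups. It had 172, 169 and 179 CPM in KO and 178, 167 and 176 CPM in KO-con. It had 210, 220 and 205 CPM in Over and 240, 231 and 239 CPM in Over-con. KO and KO-con overlapped, and all 6 of their libraries lay below all 6 of Over and Over-con. KO-con against Over-con gave a log2 fold change of -0.44 (SE 0.07, adjusted p = 0.000137, edgeR), a level of 0.737-fold. *Stim1* was the 1 gene called among the 6 tested beside *Ryr3* in that comparison, where 16.3% of all transcripts tested were called and 8.19% were lower in KO-con. It was also the 1 of these 6 whose groups did not overlap, against 32.1% of all transcripts.

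After overexpression, *Stim1* was at 212 ± 7.47 CPM against 236 ± 5.08 CPM in Over-con (SD, n = 3 each), without overlap. Its log2 fold change of -0.15 (SE 0.06, 0.823-fold to 0.985-fold) had an unadjusted p of 0.0244 and did not pass after adjustment (adjusted p = 0.299, edgeR). Against KO-con the sign turned and the difference passed (0.29, adjusted p = 0.000177, edgeR). The knockout value was 0.0049 (SE 0.067, adjusted p = 0.974, edgeR), with an interval of 0.909-fold to 1.11-fold, and its sign changed with the scaling. *Stim2* (NM_001363348; chr5:54389762-54512296, plus strand), a second sensor tuned to smaller falls of store calcium, had 23 counts in all and was not tested.

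*Orai1* (NM_175423; chr5:123465083-123480459, plus strand), the pore of store-operated entry, had group means of 24.2 ± 3.52, 25.9 ± 3.81, 24.3 ± 2.06 and 23.9 ± 3.07 CPM in KO, KO-con, Over and Over-con (SD, n = 3 each), and the 4 groups overlapped. *Orai2* (NM_178751; chr5:136623334-136646526, minus strand), a channel that can form mixed pores with *Orai1*, was at 107 ± 4.37, 117 ± 5.26, 109 ± 2.20 and 111 ± 6.19 CPM in the same order. Its KO libraries (102, 109 and 110 CPM) lay below those of KO-con (117, 112 and 122 CPM), with a log2 fold change of -0.12 that did not pass (SE 0.07, adjusted p = 0.344, edgeR). The *Orai2* counts are uncertain, because 56.0% of the 30-base stretches of its transcript also occur in another gene, *Orai2-ps* or *Ppic*.

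**Figure D2:**
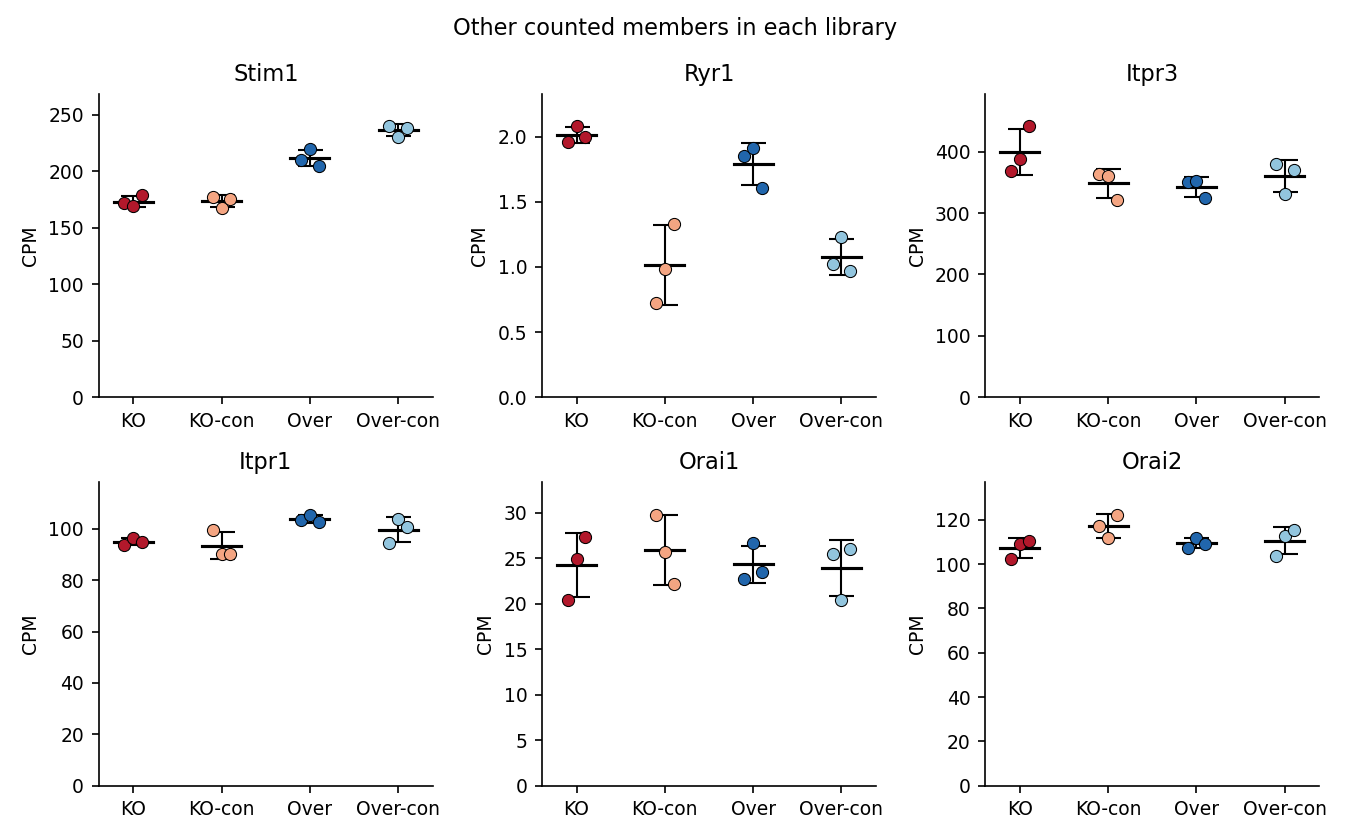
CPM (y axes) of the 6 genes beside *Ryr3* with enough counts to test, 1 panel each, by group (x axes), with 1 point per library, a bar at the mean and an error bar of 1 SD (n = 3). *Stim1* is lowest in KO and KO-con, and *Itpr1* stays between 90.3 and 106 CPM.

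Compared per kilobase of transcript, *Stim1* had the highest level of the 10 genes, with group means of 48.1 to 65.7 CPM per kb, and *Itpr3* followed with 38.1 to 44.5. These neighbours did not differ beyond their spread in KO, where the libraries of *Itpr3* reached 49.2 CPM per kb and those of *Stim1* began at 47.0. *Orai2* was at 27.9 to 30.5 CPM per kb, *Orai1* at 12.8 to 13.8, *Itpr1* at 9.48 to 10.5 and *Ryr3* at 1.06 to 2.48. From *Itpr3* down to *Ryr1*, at 0.066 to 0.131, neighbouring genes did not overlap within any group. *Stim2*, *Ryr2* and *Itpr2* had at most 6 counts per library and lower group means than *Ryr1*, but single libraries of *Stim2* reached the *Ryr1* level, and these 3 cannot be put in order.

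**Figure D3:**
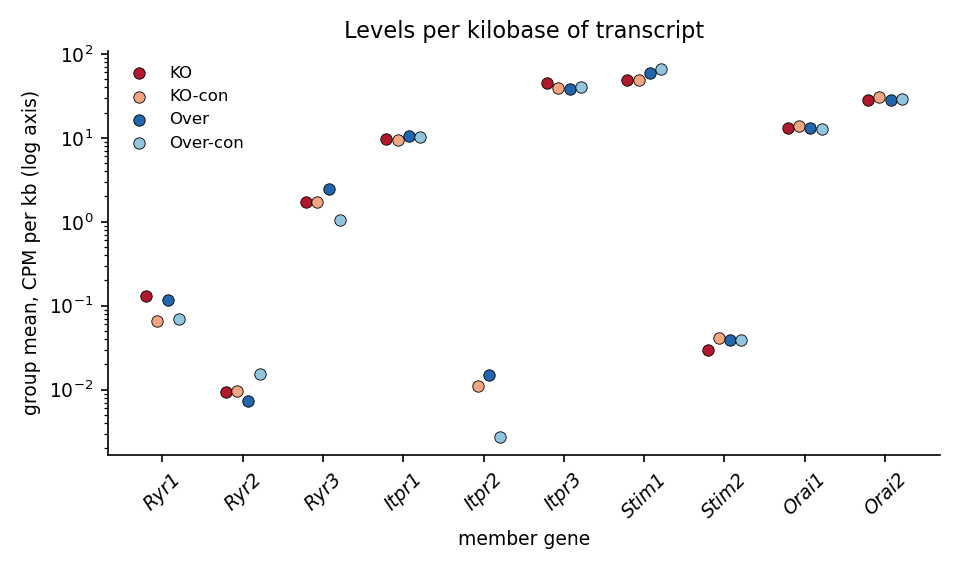
Group means in CPM per kilobase of transcript (y axis, log scale) for the 10 genes (x axis), with 1 point per group. *Stim1* and *Itpr3* lead, *Ryr3* lies between 1.06 and 2.48, and *Itpr2* in KO, at 0, is not drawn.

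In each comparison 7 of the 10 genes had enough counts to be tested, and 3 (*Ryr2*, *Itpr2* and *Stim2*) did not. For KO against KO-con, 0 of 7 were called at an adjusted p under 0.05 by edgeR, against 11.8% of all transcripts tested. DESeq2 called 0, where it called 987 of 8071 transcripts in all, but it gave no adjusted p for *Ryr1*. By edgeR, 2 (*Ryr1* and *Itpr3*) had an unadjusted p under 0.05. Groups did not overlap for 3 of the 7 (*Ryr1*, *Itpr3* and *Orai2*), where the share over all transcripts was 30.5%. For Over against Over-con, 0 of the 6 beside *Ryr3* were called by edgeR, against 1.65% of all transcripts. DESeq2 called 0, where it called 182 of 7768 transcripts in all, and again gave no adjusted p for *Ryr1*. By edgeR, 2 (*Ryr1* and *Stim1*) had an unadjusted p under 0.05. Those 2 were also the ones without overlap, against 19.3% of all transcripts. The knockout and overexpression effects did not pass edgeR's test of their difference for any of these 6, against 8.64% of all transcripts. DESeq2 called 0 for that difference, where it called 896 of 7919 transcripts in all, with no adjusted p for *Ryr1*. By edgeR, 1 (*Itpr3*) was at an unadjusted p under 0.05. The shares of all transcripts at an unadjusted p under 0.05 are not given, so those counts carry no reading.

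The precision of these tests can be read from the 95% intervals of *Itpr1*, *Itpr3*, *Stim1*, *Orai1* and *Orai2*. Over these genes they reached from 0.774-fold to 1.30-fold for the knockout and from 0.823-fold to 1.20-fold for overexpression. The intervals of *Ryr1* were wider, up to 3.40-fold and 2.83-fold. At 3 libraries per group the smallest p that exact permutation allows for 1 gene is 0.1, so the tests rest on the spread estimated across all transcripts.

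**Figure D4:**
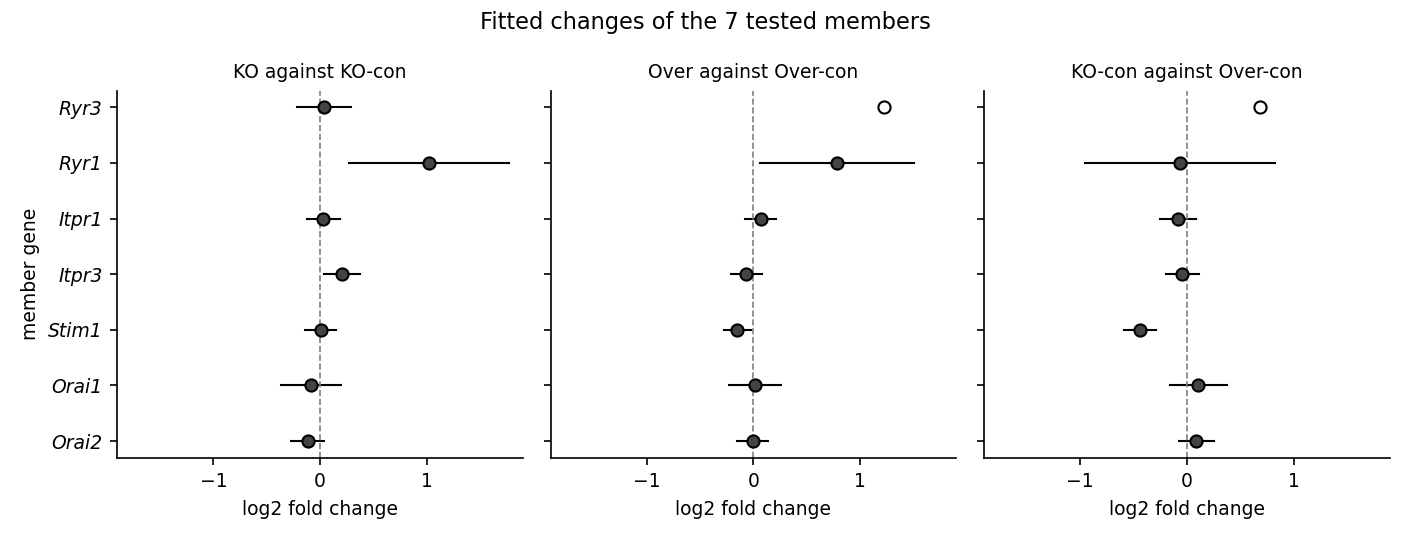
Fitted log2 fold changes (x axes) of the 7 tested genes (y axis) in 3 comparisons, with bars for 95% intervals. The open circles of *Ryr3*, at 1.22 and 0.68, carry no interval because the gene was chosen on those libraries; *Stim1* in KO-con against Over-con, at -0.44, is the 1 gene called.

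The other genes of the pathway were read from 10 lists by role, 137 genes in all. In KO against KO-con, 53 of these genes were tested as 54 transcripts, and 4 rose and 0 fell. This share of 7.41% is below the 11.8% of all transcripts called, of which 5.83% rose and 5.96% fell. The 4 were *Orai3*, *Itpripl2*, *Plcg1* and *Ppp3r1*, each in a different list, with log2 fold changes of 0.25 to 0.37. *Itpripl2* was called under every alternative run, and the calls of the other 3 depended on single libraries.

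*Orai3* encodes the third ORAI channel, which the 10 genes did not include. It had 73.8, 71.1 and 70.7 CPM in KO and 54.2, 56.3 and 57.7 CPM in KO-con, clear of each other (log2 fold change 0.37, SE 0.08, adjusted p = 0.00634, edgeR). Its call was lost without KO-con replicate 1 (adjusted p = 0.0504, edgeR) and against Over-con (adjusted p = 0.196, edgeR). In Over it was at 67.5 ± 1.93 CPM and in Over-con at 61.5 ± 5.27 CPM (SD, n = 3 each; log2 fold change 0.14, adjusted p = 0.507, edgeR). Per kilobase its mean of 30.0 CPM per kb was within the range of *Orai2* and above *Orai1*. In the test of the difference between effects it did not pass (0.23, adjusted p = 0.212, edgeR).

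*Itpripl2* encodes a relative of the IP3 receptor-interacting protein. It had 356, 335 and 317 CPM in KO and 252, 271 and 269 CPM in KO-con (log2 fold change 0.35, SE 0.07, adjusted p = 0.00321, edgeR). In Over it had 229, 206 and 209 CPM and in Over-con 253, 244 and 258 CPM, lower in every Over library, but this did not pass (-0.22, SE 0.06, adjusted p = 0.107, edgeR). *Plcg1*, a phospholipase C that makes IP3 downstream of growth factor receptors, stood at 226 ± 5.56 CPM in the KO libraries and at 191 ± 9.51 CPM in those of KO-con (SD, n = 3 each; log2 fold change 0.25, adjusted p = 0.0265, edgeR). *Ppp3r1*, the regulatory subunit of the calcium-activated phosphatase calcineurin, was at 337 ± 24.2 and 285 ± 15.7 CPM (SD, n = 3 each; log2 fold change 0.25, adjusted p = 0.0393, edgeR). The call of *Plcg1* was lost against Over-con and without any 1 of the 6 libraries but KO replicate 1 (adjusted p of 0.0584 to 0.117, edgeR). That of *Ppp3r1* was lost against Over-con (log2 fold change 0.066, adjusted p = 0.741, edgeR). It was also lost without replicate 1 or 2 of either group (adjusted p of 0.0724 to 0.203, edgeR). With the replicate block *Plcg1* and *Ppp3r1* both lost their calls (adjusted p = 0.0805 and 0.0959, edgeR).

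In Over against Over-con, DESeq2 called 0 pathway genes, where it called 182 of 7768 transcripts in all. By edgeR, 0 of 52 pathway transcripts were called, against 1.65% of all transcripts. An unadjusted p under 0.05 was found for 5, but the share of all transcripts at that p is not given, so this count carries no reading. Without Over-con replicate 3, 3 were called, where 719 of 9596 transcripts were called in all. The list medians ran from -0.096 (luminal buffers and chaperones) to 0.14 (IP3 formation and removal), beside -0.0012 over all transcripts. For the knockout they ran from -0.12 (ryanodine receptor partners) to 0.31 (IP3 receptor partners), beside 0.0067 over all transcripts.

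**Figure D5:**
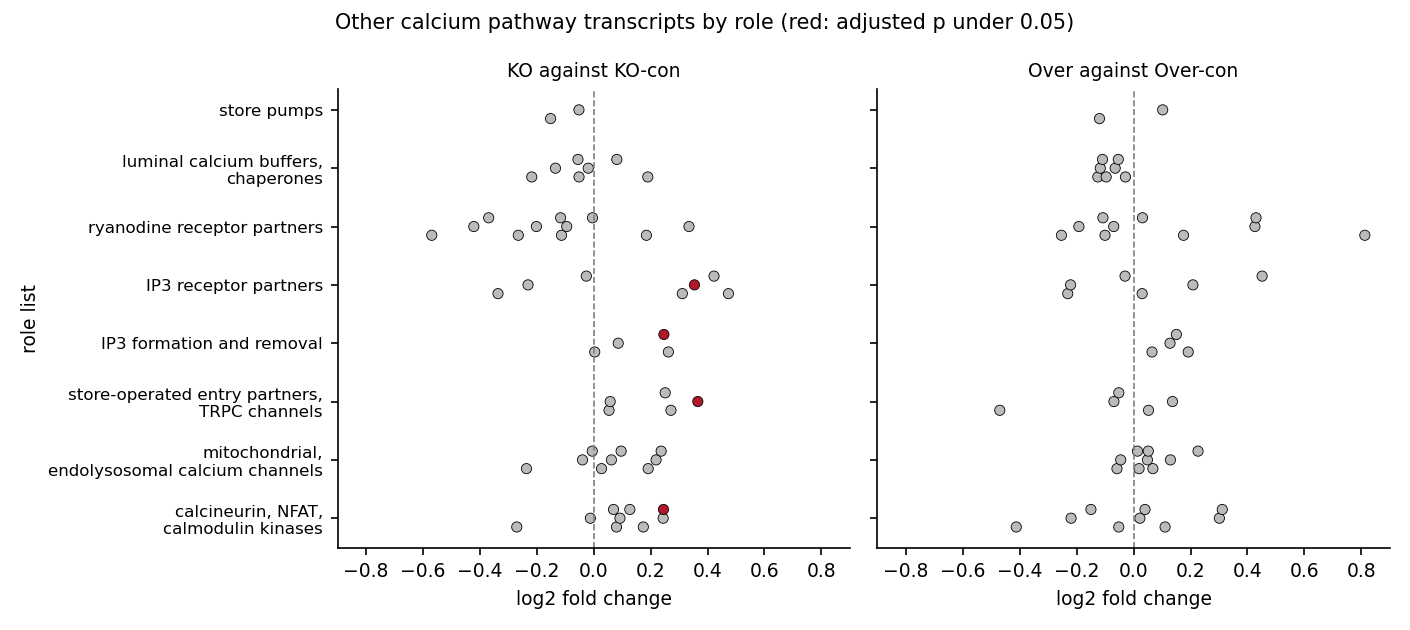
Fitted log2 fold changes (x axes) of the other calcium pathway transcripts by role (y axis), with 1 point per transcript and red where the adjusted p was under 0.05. The 4 red points, all in the knockout panel, are *Itpripl2*, *Plcg1*, *Orai3* and *Ppp3r1*, and the overexpression panel has 0.

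Store filling was represented by *Atp2a2* and *Atp2a1*, 2 of the 5 genes in the pump list, of which *Atp2a2* was counted on its noncoding transcript (NR_027838), 1 of 3 listed. *Atp2a2* was at 14.6 to 17.2 CPM and *Atp2a1* at 4.39 to 5.05 CPM in the group means, and neither passed in any comparison (smallest adjusted p = 0.264, edgeR). The buffering chaperones *Hsp90b1* and *Calr* had the highest CPM of their list, with mean levels of 2202 and 2127 CPM per kb. *Hsp90b1* stood at 6867 ± 125 CPM in KO, against 6051 ± 248 CPM in its control (SD, n = 3 each) and did not pass (log2 fold change 0.19, adjusted p = 0.113, edgeR). *Calm3*, whose product calmodulin binds ryanodine receptors, was at 279 to 309 CPM, and *Saraf*, which slows store-operated entry, at 187 to 202 CPM. None of these passed in any comparison.

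Among the 7 plasma membrane pumps and exchangers and the 18 voltage-gated calcium channel genes, no transcript had enough counts to be tested, and 4 and 10 of them were at 0 in all libraries. The 137 pathway genes were listed as 354 transcripts, and counts of genes with several transcripts were thin in this table. These low counts are therefore not read as absence. Between the controls, 3 of 54 pathway transcripts were higher in KO-con (5.56%, against 8.08% of all transcripts). These were *Vdac2*, a mitochondrial outer membrane channel (0.24, adjusted p = 0.0185, edgeR), *Cabin1*, a calcineurin inhibitor (0.24, adjusted p = 0.0293, edgeR), and *Asph* (0.54, adjusted p = 0.0237, edgeR), which encodes junctin among its products and was counted on 1 of 11 listed transcripts. All 3 calls were lost without KO-con replicate 2, Over-con replicate 1 or Over-con replicate 2 (adjusted p of 0.0536 to 0.191, edgeR). Those of *Vdac2* and *Cabin1* were also lost without KO-con replicate 1, that of *Vdac2* without KO-con replicate 3 and that of *Asph* with DESeq2.

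The transcripts whose log2 CPM ran most like *Ryr3* over the 12 libraries, of 9902 compared, were *Col23a1* (Pearson's r = 0.909), *Abca4* (0.884), *Dgkz* (0.836), *Itga4* (0.829) and *Cox11* (0.820). *Col23a1*, a membrane collagen, was at 28.9 CPM in Over, 26.6 in KO, 23.4 in KO-con and 12.8 in Over-con. *Plekhh1* (-0.872) and *Lama4* (-0.864), a laminin chain, ran most against it. Among the other calcium channels, *Ryr1* came closest (0.538, at rank 423), and *Stim1* was at -0.367. These values describe 12 points in 4 groups and share the depth of each library.

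Markers of other cells were read beside these results. Summed fibroblast markers, which the STO feeders could supply, were at 877 to 1268, 1002 to 1184, 1248 to 1305 and 1409 to 1594 CPM in KO, KO-con, Over and Over-con, with Over-con highest, as for *Stim1*, and KO overlapping Over, and 7 of 9 averaged at least 1 CPM. Summed macrophage markers were at 44.5 to 53.0, 37.2 to 44.8, 51.3 to 54.1 and 40.1 to 45.5 CPM in the same order, with 4 of 6 averaging at least 1 CPM and *Adgre1* at 0. The sum was mostly *Cd68*, at 40.9 CPM in Over and 28.7 in Over-con, whereas *Cd14*, *Mpeg1* and *Csf1r* had lower means in Over. Mast cell markers were at 1184 to 1266, 407 to 469, 686 to 704 and 793 to 904 CPM, highest in KO and mostly *Cpa3*, with 7 of 14 averaging at least 1 CPM and *Fcer1a*, *Ms4a2* and *Tpsab1* at 0. Neuronal markers were at 11.7 to 15.6, 9.09 to 12.3, 8.23 to 10.6 and 10.0 to 11.1 CPM, with 2 of 6 averaging at least 1 CPM and *Rbfox3*, *Snap25* and *Syt1* at 0, and lymphocyte markers never passed 0.528 CPM. Of the markers at 0, *Adgre1*, *Ms4a2*, *Rbfox3*, *Snap25* and *Syt1* were listed with 3, 4, 6, 5 and 8 transcripts. Counts of such genes were thin in this table. The part of the other cells in the results was not tested, and in bulk libraries fewer cells of a type and less RNA per cell cannot be told apart.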

How the data were processed

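RNA-seq libraries were made from the FGSC lines with a KAPA stranded mRNA kit. Per the submitters' processing notes and methods, the authors aligned the reads to mm9 with HISAT2 and used DESeq2, and the authors deposited raw counts per RefSeq transcript without normalization. The annotation release, strand setting and treatment of shared reads are not given in the sources used here. Groups and replicate numbers came from the sample titles. Of 41388 transcripts, 41181 (99.5%) received a symbol from the RefSeq table of GRCm38.p6. Library totals (5611846 to 12866545 counts) set the precision.

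Counts were tested with edgeR 4.0.16 (TMM, filterByExpr with a minimum count of 10, glmQLFit, glmQLFTest) and p-values were adjusted by the Benjamini-Hochberg method over every transcript tested. The knockout (9457 transcripts), overexpression (9401) and control (9321) comparisons each used their own 6 libraries, and the difference of effects (9903) all 12. A transcript was called at an adjusted p under 0.05. CPM were TMM-normalized over the 12 libraries. Lengths, exons and sequences came from mm9 (NCBIM37) and GENCODE M1, with the longest coding transcript per gene. Likeness to *Ryr3* was Pearson's r of log2 CPM (prior count 2).

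The genes and lists were chosen with earlier results of these data known. Named were the 10 genes, *Dppa3*, of each pathway list the 2 genes with the highest mean CPM and at most 3 called per comparison, and the 5 most and 2 least *Ryr3*-like transcripts; 1 gene that the rule names is not reported here. Chosen after seeing values were a few more names (*Aven*, *Orai2-ps*, *Ppic* and marker genes). Within groups, pairs of libraries differed by more than counting noise (chi-square per degree of freedom 2.02 to 14.0). Alternatives were DESeq2 1.42.0, its size factors in edgeR, no low-count filter, counts summed per gene, a replicate block, all 12 libraries in 1 fit, the other control group, and each library left out in turn. The steps were tested on simulated data. R 4.3.3 and Python 3.11.15 were used.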

Additional observations from a re-analysis of the deposited data

Results flagged for a closer look

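*Itpripl2* was the 1 pathway gene whose knockout and overexpression effects differed in the test of the difference itself (0.58 on the log2 scale, SE 0.09, adjusted p = 0.000407, edgeR, 12 libraries). It was at 336 ± 19.6 CPM in KO against 264 ± 10.1 in KO-con, and at 215 ± 12.6 CPM in Over, where its control had 251 ± 7.15 CPM (SD, n = 3 each). It was higher in 3 of 3 KO libraries than in any KO-con library and lower in 3 of 3 Over libraries than in any Over-con library, though the overexpression effect alone did not pass (-0.22, adjusted p = 0.107, edgeR). This share, 1 of 59 pathway transcripts (1.69%), is below the 8.64% of all transcripts called for that difference.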

How the results depend on the processing

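Over the alternatives, 94 of 110 counts of calls stayed within 1.5 times the reported count, and 310 of 339 tested fold changes of 7 genes (*Ryr3* only in the knockout comparison) kept their direction and their side of the threshold. The log2 fold change of *Ryr3* in Over stayed at 1.15 to 1.31 whichever library was dropped. For the knockout, calls among the 10 genes rose from 0 to 1 both with all 12 libraries in 1 fit (*Ryr1*) and with the other control group (*Stim1*; *Ryr3* not counted there), and were 0 to 1 over the libraries left out, the 1 being *Itpr3* without KO replicate 1. Over all transcripts, 1322 of 9903, 737 of 9363 and 1271 of 9756 were called in these fits in turn. In the reported fit 1115 of 9457 were. Pathway calls for the knockout went from 4 to between 1 and 6 over the libraries left out, with 1 without KO-con replicate 1 and 2 without KO replicate 2 or KO-con replicate 2. Calls over all transcripts were 613 of 9844, 715 of 9523 and 664 of 9519 without these libraries in turn. For overexpression, the other control group gave 1 call beside *Ryr3* (*Stim1*) and 10 pathway calls. Over all transcripts, 2026 of 9413 were called there, against 155 of 9401 in the reported fit. Libraries left out gave 0 to 3 pathway calls, 3 of them without Over-con replicate 3, where 719 of 9596 transcripts were called in all. Pathway calls between the controls lay between 0 and 4, with 0 without KO-con replicate 2 or Over-con replicate 1 and 1 without KO-con replicate 1. Without these libraries in turn, 1052 of 9548, 998 of 9595 and 882 of 9623 transcripts were called in all, against 1516 of 9321 in the reported fit. Those for the difference of effects were 2 with DESeq2 or no low-count filter and 1 to 2 over the libraries left out, 2 being without Over-con replicate 3. In these fits 896 of 7919, 921 of 20862 and 1126 of 10197 transcripts were called in all, against 856 of 9903 in the reported fit. The causes were not tested.

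Signs turned with the other control group for *Itpr1* (-0.068), *Stim1* (-0.45) and *Orai1* (0.0094) in the knockout and for *Stim1* (0.29) and *Orai1* (-0.086) in overexpression. *Stim1* in the knockout was -0.0023 with DESeq2, -0.0030 with its size factors and -0.0024 with all 12 libraries, and *Orai2* in overexpression was 0.011 without the filter. Over the libraries left out, values crossed 0 in the knockout for *Ryr3* (-0.059 to 0.11), *Stim1* (-0.024 to 0.021) and *Orai1* (-0.19 to 0.021), and in overexpression for *Orai1* (-0.063 to 0.074) and *Orai2* (-0.053 to 0.031). Between controls they did so for *Ryr1* (-0.28 to 0.12), *Itpr3* (-0.10 to 0.016) and *Orai1* (-0.00037 to 0.20), and in the difference of effects for *Itpr1* (-0.076 to 0.010) and *Orai1* (-0.20 to 0.0062).

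Same-numbered replicates correlated between -0.152 and 0.0568 in their deviations from the group means, and 0, 0 and 2 of 6 libraries correlated best with their own number, so the numbers were not taken as pairs. With the replicate block, calls over all transcripts went from 1115 to 837 for the knockout, 155 to 67 for overexpression, 1516 to 1620 between controls and 856 to 733 for the difference of effects, and knockout pathway calls from 4 to 2. Depth left *Ryr2*, *Itpr2* and *Stim2* untested and the intervals of *Ryr1* wide.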
